A study of Mus musculus with 12 samples.

Results

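In the mouse cecum, 44 genes were low at 72 h after cauterization and near the sham level at 3 h and 12 h. They were chosen by these values themselves, out of 17991 named genes that were well above background on all 3 sham arrays and 27248 named genes in all. The value of a gene was the log2 intensity of its brightest probe minus the 75th percentile of its array, and a member had a 72 h mean at least 1.5 below the sham mean, with 3 h and 12 h means within 0.5 of it. The rule was met by 0.245% of the 17991 genes, and since the rule used all 3 contrasts, the levels of the members at these times are given as a description and were not tested.

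RNA came from the cecum of C57BL/6 mice, with 3 biological replicates in each of 4 groups and 1 array for each replicate. The study followed how adhesions form after the cecum is cauterized with bipolar forceps, and the groups were a sham control and tissue sampled 3, 12 or 72 h from cauterization. The age of the mice was not given in the sources used here. By the study's methods, sham tissue was taken right after the sham operation, but the sample labels can also be read as sham tissue from the later times. With no sham group labelled for each time, time since surgery and cauterization cannot be told apart. All mice were labelled male, but Xist, the noncoding RNA that silences an X chromosome in female cells, was well above background on all 12 arrays, with values between -0.77 and 0.00. No probe of Ddx3y or Eif2s3y, both on the Y chromosome, was above background on any array, with values of at most -5.40. Of 6 probes of Kdm5d, also on the Y chromosome, the brightest was above background on all 12 arrays and the other 5 on 0 arrays, and the brightest of 3 probes of Uty was above background on 1 array. The sex on the labels thus went against Xist, Ddx3y and Eif2s3y in every group, while 1 probe of Kdm5d stood apart from these.

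The 12 arrays lay on 2 slides. All sham and 3 h arrays and 12 h replicates 1 and 2 were on slide 1, and 12 h replicate 3 and all 72 h arrays were on slide 2. The share of the 56605 probes with signal well above background ran from 60.2% to 65.2% over the arrays. With 3 arrays a group, precision is limited by their number.

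The lining of the large intestine takes up salt, water, calcium and bile acids. Its mature surface cells carry carbonic anhydrases, ion exchangers, lipid-binding proteins and detoxifying enzymes, and goblet cells between them secrete mucus. The same lining holds a steady low level of interferon-induced defence genes. In bulk tissue, fewer cells of a type and less RNA per cell cannot be told apart.

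Of the 44 genes, 26 were well above background on all 3 of the 72 h arrays, 4 on 1 or 2 of them and 14 on none. Some were also not above background on every array at 3 h or 12 h, so their values near sham are not exact. A530065N20Rik was above background on 0 arrays at 3 h, and Gm31344 on 1 array at each of these times. Over the 44 genes, median differences from sham for 3, 12 and 72 h were -0.01, -0.24 and -1.85, and at 72 h single genes ranged from -3.67 to -1.51. Over all 17991 genes the medians were -0.04, -0.09 and -0.14, and over all probes 0.06, -0.02 and -0.15. The median SD between replicates of the members was 0.21 in sham and 0.53 at 72 h, while over all 17991 genes both were 0.16. Taking each array alone, the members' median difference from the sham mean was -2.11, -1.81 and -1.59 on the 72 h arrays and between -0.39 and 0.07 on the 3 h and 12 h arrays. In 38 of the 44 genes, every 72 h array lay below all 9 other arrays, as in 11.8% of the 17991 genes, and since the rule fixes this direction nothing is read from it. The exceptions were Xlr5c, Slamf1, Gm36447, Nmu, Gm30374 and Kif27.

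**Figure D1:**
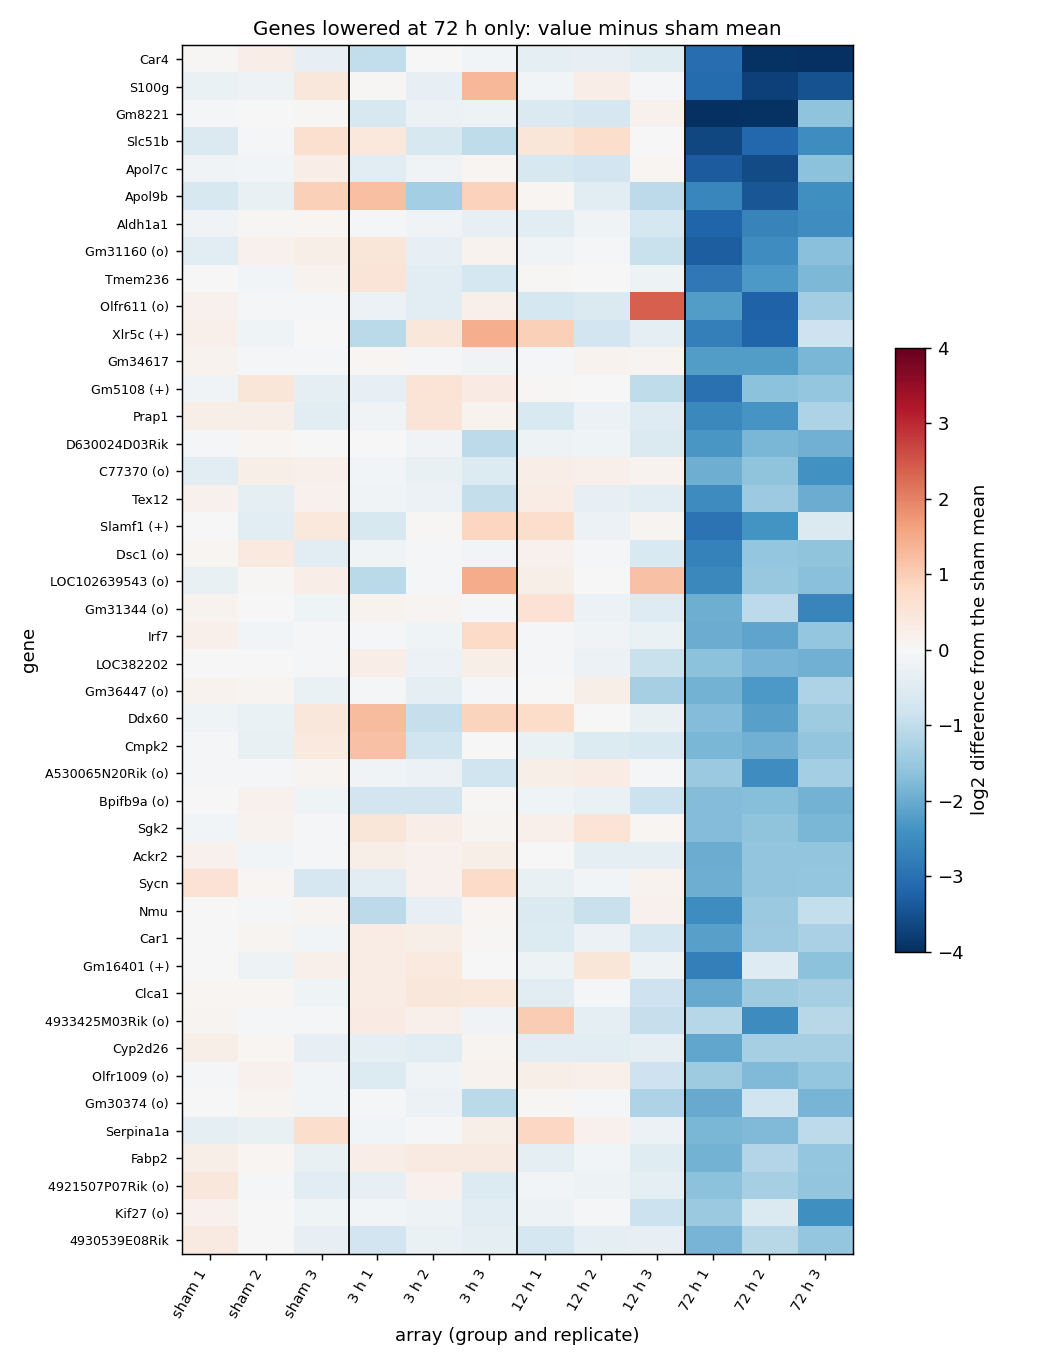
Difference of each array from the sham mean on the log2 scale for the 44 genes, in order of the 72 h difference, with colours running from -4 to 4; (+) marks genes above background on only some 72 h arrays and (o) genes above background on none of them. The 72 h columns are blue for every gene, and several genes marked (o) are also pale blue on 12 h replicate 3.

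By the values of the rule, the largest 72 h difference was that of Car4, a carbonic anhydrase anchored on the surface of colon epithelial cells (probe at chr11:84777667-84777726, mm9). Its values were 3.42, 3.62 and 3.02 in sham, 2.39, 3.37 and 3.25 at 3 h, 2.97, 3.02 and 2.86 at 12 h, against 0.31, -0.60 and -0.66 at 72 h. All 72 h arrays were low and did not overlap any other array, and the means were 3.36 ± 0.31 (SD, n = 3) in sham and -0.31 ± 0.54 (SD, n = 3) at 72 h, a 12.7-fold difference. Car1, a cytosolic carbonic anhydrase (chr3:14767486-14767545), was at 8.77, 8.89 and 8.69 in sham, 9.10, 9.02 and 8.85 at 3 h, 8.25, 8.56 and 8.09 at 12 h, against 6.63, 7.34 and 7.50 at 72 h. The Car1 arrays at 72 h lay below all others, and its 12 h difference of -0.49 was close to the edge of the window. A second probe of Car1 differed by -1.5 at 72 h.

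S100g, which encodes the calcium-binding protein calbindin-D9k of absorptive cells (chrX:159400032-159400091), was at 3.98, 4.06 and 4.69 in sham, 4.29, 3.91 and 5.58 at 3 h, 4.13, 4.52 and 4.17 at 12 h, against 1.18, 0.52 and 0.77 at 72 h. Its 3 h replicate 3 was the highest of all, and the 72 h arrays were apart from the 9 others and 10.7-fold lower on average, at 0.82 ± 0.34 (SD, n = 3) against 4.25 ± 0.39 (SD, n = 3). Slc51b, one of the subunits of the transporter that exports bile acids at the base of the cell (chr9:65260705-65260764), was at 2.11, 2.59 and 3.33 in sham, 3.09, 2.04 and 1.66 at 3 h, 3.15, 3.39 and 2.69 at 12 h, against -0.96, -0.47 and 0.21 at 72 h. Its sham and 3 h arrays spread over more than 1 log2 unit, and the 72 h arrays were still apart from them. Aldh1a1, an aldehyde dehydrogenase that makes retinoic acid (chr19:20717764-20717823), was at 5.86, 6.06 and 6.08 in sham, 5.93, 5.87 and 5.68 at 3 h, 5.54, 5.86 and 5.31 at 12 h, against 2.80, 3.32 and 3.53 at 72 h. Its 72 h arrays lay below all others, the sham SD was 0.12 and the 72 h difference was -2.78.

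**Figure D2:**
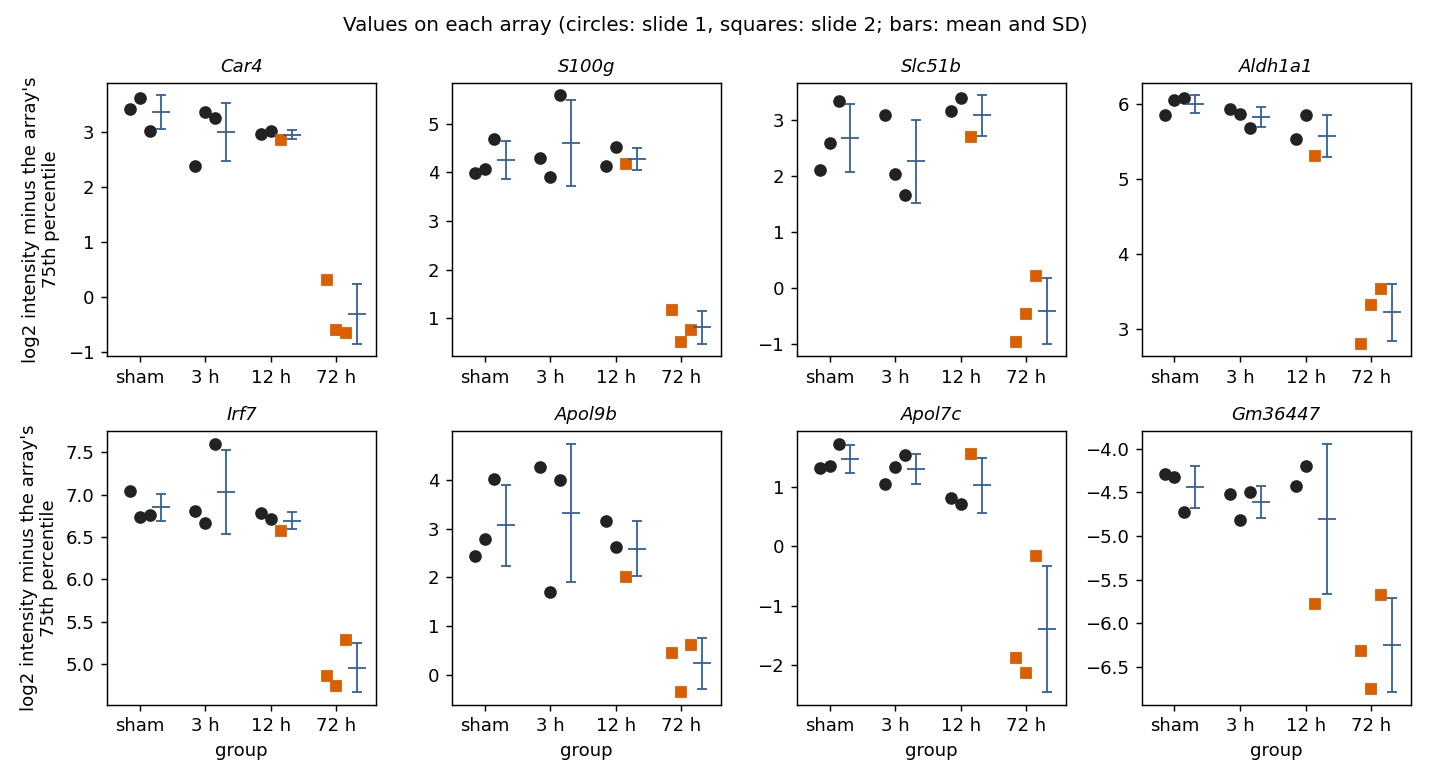
Values of 8 genes on each array (log2 scale, relative to the 75th percentile of that array) by group, with circles for slide 1, squares for slide 2 and blue bars for the mean and SD of 3 arrays; each panel has its own vertical axis. On 12 h replicate 3, the square in the 12 h column, S100g, Slc51b and Apol7c lie within the range of the sham arrays. Car4 at 2.86, Aldh1a1 at 5.31, Irf7 at 6.57, Apol9b at 2.01 and Gm36447 at -5.78 lie below it.

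Fabp2, Clca1 and Sgk2 differed from sham by less at 72 h than S100g, Slc51b and Aldh1a1. Fabp2, the intestinal fatty acid binding protein, was at 8.13, 7.98 and 7.59 in sham, 8.17, 8.27 and 8.25 at 3 h, 7.51, 7.80 and 7.40 at 12 h, against 6.01, 6.74 and 6.35 at 72 h. Clca1, a protein secreted with goblet cell mucus, was at 7.39, 7.39 and 7.12 in sham, 7.60, 7.76 and 7.73 at 3 h, 6.88, 7.21 and 6.46 at 12 h, against 5.29, 5.87 and 5.98 at 72 h. In both genes the 72 h arrays lay below all others, and the 12 h means were the lowest of the earlier groups. Sgk2, a kinase related to the salt-regulated kinase Sgk1, was at 5.20, 5.44 and 5.25 in sham, 5.78, 5.57 and 5.41 at 3 h, 5.5, 5.85 and 5.37 at 12 h, against 3.56, 3.69 and 3.46 at 72 h. Its replicates were close together in each group, with an SD of 0.12 at 72 h. Cyp2d26, a cytochrome P450, differed by -1.58 at 72 h on its brightest probe and by -1.0 on a second probe. Prap1, a secreted acidic protein of the gut epithelium, differed by -2.06 with a wide 72 h SD of 0.72. Sycn (syncollin), known from the secretory granules of the exocrine pancreas, went from 6.14 ± 0.62 (SD, n = 3) in sham to 4.45 ± 0.23 (SD, n = 3) at 72 h. Tmem236, a membrane protein, went from -0.59 ± 0.14 (SD, n = 3) to -2.92 ± 0.53 (SD, n = 3). Serpina1a, a protease inhibitor, differed by -1.55 at 72 h. Its second probe differed by -1.79 at 72 h and by 0.54 at 12 h, just outside the window. Bnip5, listed on the array as 4930539E08Rik, stood just inside both limits, with -0.47 at both earlier times and -1.51 at 72 h.

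These genes were set beside 24 lists of gut functions and cell types. Of the lists, 7 held a member, and 8 members were in a list. In these lists, the genes that are not members were counted as called by limma at a fold above 2 and an adjusted p below 0.05. Of all 27248 named genes, 4.26% were called lower and 3.79% higher at 3 h, against 5.59% lower and 4.78% higher at 12 h and 4.36% lower and 5.56% higher at 72 h. Because the slide goes with the time, each count at 72 h is also given with slide as a block, which took the genes called at 72 h from 2703 to 942, or 1.41% of all named genes lower and 2.05% higher.

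Among carbonic anhydrases other than Car1 and Car4, 5 of 14 were called lower at 72 h and 3 at 12 h, and 2 were called lower at 72 h with slide as a block. Over the 11 of these above background on all sham arrays, the median difference at 72 h was -1.01, or -0.65 with slide as a block and -0.32 with normexp background correction, and their 72 h mean differed from 12 h replicate 3, on the same slide, by a median of -0.21. Car2, a cytosolic enzyme like Car1, differed by -1.56 at 72 h (limma adjusted p = 0.00103, standard error 0.21) and by -1.21 at 12 h. Car14 differed by -1.54 and -1.08, so that both were below the window at 12 h. The rule placed Car1 and Car4 inside it, so nothing is read from this contrast. In the list of electrolyte and water transport, which holds Clca1 and Sgk2, 14 of the 47 other genes were called lower at 72 h, or 3 with slide as a block, and 8 at 12 h. Over the 42 of these above background on all sham arrays, the median was -0.63 at 72 h against sham and 0.01 against 12 h replicate 3 on the same slide. Both of these medians at 72 h were below the sham level under each scaling tried. Of drug and steroid metabolism genes beside Cyp2d26 and Aldh1a1, 27 of 92 were called lower at 72 h, or 7 with slide as a block, and 29 at 12 h.

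For drug and bile acid transporters beside Slc51b, 9 of 30 were called lower and 4 higher at 72 h, or 2 and 1 with slide as a block, against 6 and 3 at 12 h. For butyrate uptake, fatty acid oxidation and ketogenesis beside Fabp2, 12 of 48 were called lower and 2 higher, and 1 was called lower with slide as a block. At 12 h, 14 of these 48 were called lower, and over the 47 above background on all sham arrays, the 72 h mean differed from 12 h replicate 3 by a median of 0.18. In the goblet cell list beside Clca1, 4 of 52 were called lower and 9 higher, or 1 and 4 with slide as a block, against 2 and 8 at 12 h. In the mesothelial list, which also holds Aldh1a1, 7 of 16 were called higher at 72 h, or 2 with slide as a block, while 5 were called lower and 1 higher at 3 h, and as many at 12 h. The list of the brush border and terminal differentiation held no member, with 8 of its 54 genes called lower and 4 higher at 72 h, or 3 lower with slide as a block, against 3 lower and 3 higher at 12 h.

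Genes that work with the members were then looked at; they were chosen after their values were seen and were not tested as groups. Trpv6, the channel through which calcium enters the cells that hold S100g, had differences from sham of 0.05, -0.65 and -3.46 for 3, 12 and 72 h, outside the window at 12 h. Slc51a, the partner of Slc51b, had -0.04, -1.09 and -1.98. Slc10a2, which takes bile acids up from the gut, had -0.10, -1.17 and -5.06. S100g and Slc51b differed from sham by 0.03 and 0.40 at 12 h. The rule held them near sham at that time, so nothing is read from the gap between them and these genes, which was not tested. The 12 h value of Trpv6 did not pass limma's test (adjusted p = 0.245). Nr1h4, the bile acid receptor, missed the rule at 3 h, with 0.55, -0.36 and -1.54. Other genes of these lists did not share the low 72 h values, as Fabp6 and Abcc4 of the bile acid list had -0.28 and 0.24, and Cldn12 and Cldn2 of the calcium list -0.02 and 1.37. Of the non-members above background on all sham arrays, 5 of 7 in the bile acid list and 5 of 8 in the calcium list were at most -1 at 72 h, beside 5.89% of all 17991 genes. The medians were -1.54 and -1.41, or -0.93 and -1.10 with slide as a block, and -0.76 and 0.01 against 12 h replicate 3 on the same slide. With members included, the bile acid list had medians of -0.07, -0.5 and -1.76 for 3, 12 and 72 h. Those of the calcium list were 0.05, -1.36 and -1.64, so this list was low at 12 h already.

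A second set of members are genes known to be induced by interferons. Irf7, the transcription factor that amplifies type I interferon production (chr7:148449104-148449163), was at 7.04, 6.74 and 6.76 in sham, 6.81, 6.67 and 7.60 at 3 h, 6.78, 6.71 and 6.57 at 12 h, against 4.86, 4.74 and 5.29 at 72 h. All 72 h arrays were low, and a second probe of Irf7 differed by -2.06. Ddx60, a helicase of antiviral sensing, was at -0.09, -0.20 and 0.54 in sham, 1.35, -0.83 and 0.96 at 3 h, 0.82, 0.05 and -0.23 at 12 h, against -1.64, -2.08 and -1.35 at 72 h. Cmpk2, a mitochondrial nucleotide kinase, was at 0.15, -0.07 and 0.61 in sham, 1.39, -0.58 and 0.22 at 3 h, -0.04, -0.31 and -0.38 at 12 h, against -1.59, -1.68 and -1.36 at 72 h. For Ddx60 and Cmpk2, 3 h replicate 1 was above and 3 h replicate 2 below every sham array, so that their 3 h means near sham joined arrays that differed, and the 72 h arrays of both were below all others.

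Apol9b, an apolipoprotein L gene (chr15:77566751-77566810), showed the same spread, at 2.43, 2.78 and 4.01 in sham, 4.27, 1.70 and 4.0 at 3 h, 3.15, 2.63 and 2.01 at 12 h, against 0.45, -0.35 and 0.62 at 72 h. Apol7c (chr15:77355343-77355402) was at 1.31, 1.35 and 1.72 in sham, 1.04, 1.32 and 1.53 at 3 h, 0.81, 0.70 and 1.55 at 12 h, against -1.87, -2.12 and -0.17 at 72 h. Gm8221, a pseudogene between them (chr15:77457384-77457443), was at -0.38, -0.29 and -0.26 in sham, -0.96, -0.56 and -0.50 at 3 h, -0.89, -0.98 and -0.13 at 12 h, against -4.30, -4.27 and -1.92 at 72 h. In both Apol7c and Gm8221, 72 h replicate 3 stood well above the other 72 h arrays. The 3 genes are neighbours on chromosome 15, with 3 genes between Apol7c and Gm8221 and 6 between Gm8221 and Apol9b in the RefSeq order of GRCm38.p6. The probe of Apol7c is also annotated to the transcript of Gm8221, so their values are not independent. Of 5 other apolipoprotein L genes above background on all sham arrays, 3 were at most -1 at 72 h, beside 5.89% of the 17991 genes. Apol9a had differences of 0.17, -0.58 and -2.74 for 3, 12 and 72 h, outside the window at 12 h. Apol10a was at -2.93 at 3 h already, and Apol7b and Apol10b differed by only -0.32 and -0.11 at 72 h. These genes were not tested as a group.

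A list of 50 interferon-stimulated genes, chosen after values were seen and not tested, held 4 members (Irf7, Ddx60, Cmpk2 and Apol9b). The medians of the list for 3, 12 and 72 h were 0.50, 0.39 and -0.79, members included. Without the members, 16 of 46 were at most -1 at 72 h, or 34.8%, beside 5.89% of the 17991 genes. Their median at 72 h was -0.69, or -0.56 with slide as a block, and -1.17 against 12 h replicate 3 on the same slide. On the 3 h arrays the median of the list was 0.99, -0.28 and 0.79, so 3 h replicate 2 was low for the list as it was for Ddx60, Cmpk2 and Apol9b. Ifit1 and Usp18, both in the list, were above the window at 3 h, with differences of 1.43 and 0.98, and had differences of -2.44 and -2.23 at 72 h. With members included, 43 of the 50 were below sham at 72 h. Others of the list were above it, as Trim30d, Trim30a and Ifi44 had 1.04, 0.93 and 0.71.

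Upstream sequences were searched for the letters GAAANNGAA, the core of the element bound by interferon-activated factors, on both strands. Of 34 members with a promoter in the RefSeq table (GRCm38.p6, 300 bases around a gene's start), 6 held it, or 17.6%, beside 9.76% of all 27025 genes with a promoter there. TATAAA was in 26.5% of these members and 15.7% of all genes, and CAAAGTCCA, letters like those of an HNF4 element, in 0 members and 0.555% of all genes. The 6 were Ddx60, Apol9b, Apol7c, Tex12, Tmem236 and Olfr1009, while Irf7 and Cmpk2, whose promoters are in the table too, held no match. The matches upstream of a start are shown with matching letters in capitals, 5′ to 3′ on the strand of the gene; that of Olfr1009 did not lie wholly upstream.
Ddx60, chr8:61928014-61928086, plus strand: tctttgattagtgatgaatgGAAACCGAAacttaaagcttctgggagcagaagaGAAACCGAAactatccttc
Apol9b, chr15:77729016-77729070, plus strand: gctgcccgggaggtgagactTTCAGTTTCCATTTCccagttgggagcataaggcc
Apol7c, chr15:77533335-77533389, minus strand: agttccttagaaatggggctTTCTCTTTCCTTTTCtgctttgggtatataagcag
Tex12, chr9:50561422-50561470, minus strand: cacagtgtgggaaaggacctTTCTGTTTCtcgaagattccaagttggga
Tmem236, chr2:14174387-14174435, plus strand: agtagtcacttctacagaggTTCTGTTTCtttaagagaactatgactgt
Ddx60, Apol9b and Apol7c held 2 matches each, of which the nearer ended 10, 21 and 39 bases before the start, and the single matches of Tex12 and Tmem236 ended 173 and 108 bases before it. In all but Ddx60 the letters run on the opposite strand, and in Apol9b and Apol7c the 2 matches overlap. These coordinates are those of GRCm38.p6 and differ from the mm9 positions of the probes. A match is a description of the letters and shows no binding.

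Further members above background at 72 h had other known roles. Ackr2, a receptor that takes up inflammatory chemokines without signaling, was at -0.63, -0.89 and -0.86 in sham, -0.56, -0.63 and -0.55 at 3 h, -0.79, -1.14 and -1.15 at 12 h, against -2.76, -2.36 and -2.38 at 72 h. The 72 h arrays of Ackr2 were apart from the rest, and its second probe was above background on no sham array. Nmu, the neuropeptide neuromedin U, was at -2.16, -2.23 and -2.04 in sham, -3.20, -2.47 and -2.06 at 3 h, -2.72, -3.03 and -1.98 at 12 h, against -4.64, -3.63 and -3.09 at 72 h, so that its 72 h replicate 3 overlapped 3 h replicate 1. Tex12, known from meiotic chromosomes, differed by -1.98. Gm34617, a long noncoding RNA, had replicates close together, with -3.47, -3.49 and -3.06 at 72 h against -1.11, -1.33 and -1.28 in sham. D630024D03Rik, also noncoding, differed by -2.03 on its brightest probe. Another of its probes differed by -0.92 at 12 h and by -0.99 at 72 h, so that it lay outside the window at 12 h. LOC382202, a transcript matched to no RefSeq gene, differed by -1.81.

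With C77370 counted among them, names of predicted, LOC or RIKEN type were borne by 16 of the members, or 36.4%, and by 16.0% of the 17991 genes. Of these 16, only Gm8221, D630024D03Rik, Gm34617, LOC382202 and 4930539E08Rik were above background on all 72 h arrays. The share of 36.4% thus rests mostly on genes near background at 72 h, and nothing is read from it. By RefSeq, 33 members were protein coding, 6 were long noncoding RNAs, 1 was a pseudogene and 4 were not matched. The 14 members above background on no 72 h array have only a lower bound of their fold, taken as the sham mean against a 72 h mean in which each array gives the lowest signal it had among probes well above background, unless the gene's own was higher. Dsc1, a desmosomal cadherin, was at least 3.00-fold lower, and LOC102639543 at least 3.06-fold. C77370, now Nexmif, was at least 2.94-fold lower, and its other 2 probes were above background on all sham arrays and no 72 h array. At 3 h, 1 of these 2 probes was above background on 1 array only and differed by -0.62, outside the window. Bounds of 2.30-fold and 2.11-fold held for Gm31160 and Olfr611. The smallest bounds were at least 1.33-fold for A530065N20Rik and at least 1.41-fold for Gm31344 and 4933425M03Rik. The others (Gm36447, Bpifb9a, Olfr1009, Gm30374, 4921507P07Rik and Kif27) lay between 1.45-fold and 1.90-fold. The sham means of these 14 genes lay between -4.72 and -3.52, and the lowest signal well above background on a sham array between -5.08 and -4.93.

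Xlr5c, Slamf1 and Gm16401 were above background on 1 of the 3 arrays at 72 h and Gm5108 on 2. Slamf1, a receptor of lymphocytes, was at -3.22, -3.68 and -2.83 in sham, -3.87, -3.18 and -2.38 at 3 h, -2.53, -3.49 and -3.12 at 12 h, against -6.19, -5.62 and -3.82 at 72 h. Its 72 h replicate 3 reached the level of 3 h replicate 1, and Xlr5c likewise had 1 high array at 72 h, at -4.86 beside -6.76 and -7.21. Over all members, 12 had other probes, and in 6 genes another probe was above background on all sham and all 72 h arrays. These 6 probes differed from sham at 72 h by -2.06 to -0.99. With normexp background correction, the 72 h difference moved by over 1.5 times in 8 of the 26 genes above background on all 72 h arrays. These were Gm8221 (to -1.56), Tmem236 (to -1.35), Gm34617 (to -1.07), Ackr2 (to -1.05), Tex12 (to -1.01), D630024D03Rik (to -0.98), LOC382202 (to -0.69) and Nmu (to -0.68). It moved as far in all 14 genes above background on no 72 h array and in all 4 above it on some.

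The slide bears on these values, since only 12 h replicate 3 shared the slide of the 72 h arrays. On it, the members were lower than the mean of the other 12 h arrays in 35 of 44 genes, with a median of -0.31, beside 57.4% of all 17991 genes and a median of -0.05. In the 14 genes above background on no 72 h array the median was -0.69, and 9 of the 14 were lower by at least 0.5, against 6 of the 26 genes above background on every 72 h array, whose median was -0.21, and 4.65% of all 17991 genes. Gm36447 was at -4.42 and -4.20 on the 12 h arrays of slide 1 and at -5.78 on that of slide 2, with 72 h values of -6.32, -6.75 and -5.67, and none of its values on slide 2 was above background. Within slide 2, the 72 h mean differed from 12 h replicate 3 by a median of -1.5 over the 44 genes, -1.59 over the 26 and -1.22 over the 14. With slide as a block, the median 72 h difference was -1.60 over the 44, and 25 genes still reached -1.5, 19 of them among the 26 and 4 among the 14. Among the 26, Gm8221 was then at -3.98 and Apol7c at -3.64, both lower than Car4 at -3.53. S100g was at -3.27, Slc51b at -2.5, Aldh1a1 at -2.40 and Irf7 at -1.71, while Apol9b was at -1.95 with a standard error of 1.22. The block moved the difference by over 1.5 times in 5 of the 26 genes, Ddx60 to -1.11, Clca1 to -1.0, LOC382202 to -1.07, Serpina1a to -0.82 and Nmu to -2.54, and in 10 of the 14. Since the 14 were not above background at 72 h, their adjusted differences are not given singly. Olfr611, 1 of the 14, was above background on all 12 h arrays, at -1.67 on slide 2 beside -4.77 and -4.65 on slide 1. These adjusted values rest on the 1 array at 12 h on slide 2, so slide and that replicate cannot be told apart. The rule also set the 72 h means low and the 12 h means, which include that replicate, near sham. The members' low values within slide 2 or under the block were thus largely fixed in advance and are not a test of the slide.

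Markers of the tissue's cell types were read on the same arrays. All 7 markers of the epithelial lineage (Epcam, Cdh1, Krt8, Krt18, Krt19, Vil1 and Cdh17) were above background on all sham arrays, and their median differences were 0.53, 0.14 and -0.43 for 3, 12 and 72 h. At 72 h they ran from -0.86 for Vil1 to -0.29 for Epcam, so that none reached a fold of 2, and the median was -0.23 with slide as a block. On the 72 h arrays their median was -0.80, -0.32 and -0.27. The members above background on all 72 h arrays had medians of -2.19, -1.88 and -1.60 on the same arrays, so that replicate 1 was the lowest in both. Fibroblast markers had a median of 1.60 and macrophage markers 1.74 at 72 h, with 3 of 4 and 4 of 4 called higher, or 1 and 4 with slide as a block. Smooth muscle markers had -1.55, with 4 of 5 called lower, or 5 with slide as a block. Of 4 neutrophil markers, 3 were called higher at 72 h with and without the block. The 3 B cell markers had a median of -1.24 at 72 h, none called, with -2.08, -0.93 and -0.63 on the 72 h arrays. On the 3 h arrays they stood at -4.06, -1.09 and 0.18. T cell markers had a median of -0.34 at 72 h and were not called. The 3 adipocyte markers had medians of -3.23, -3.47 and 0.04 for 3, 12 and 72 h, none called, and on the 72 h arrays 2.38, 1.48 and -3.72, so that replicate 3 was the lowest, while it was the highest for Slamf1, Xlr5c, Apol7c and Gm8221. The 4 mesothelial markers had -2.82, -2.49 and 0.46, with 2 called lower at each earlier time and 1 called higher at 72 h, or 0 with slide as a block. Endothelial markers had a median of 0.45 at 72 h, with 1 of 3 called higher (Cdh5), or 0.76 and 0 with slide as a block. Enteric neuron markers had -0.29, with 0 of 4 called, or -1.16 and 0 with slide as a block. Enteric glia markers had -0.14, with 1 of 3 called lower (S100b), or -0.93 and 1 with slide as a block. The part of such shifts in the members' values was not tested.

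Of 356 genes that were at least 1.5 below sham at 72 h, 160 were below the window at both earlier times, 106 at 12 h alone and 19 at 3 h alone, 27 were above it at 3 h or 12 h, and 44 were the members, or 12.4%. Genes above background on all 72 h arrays made up 59.1% of the members and 64.0% of the 356. The edges of the rule decided some places. Just inside the 72 h limit were 4921507P07Rik, Kif27 and 4930539E08Rik, each at -1.51, and just outside were Btnl4 at -1.49, Serpina1c at -1.48 and Gm7544 at -1.46. Since 4921507P07Rik and Kif27 were above background on no 72 h array, their places by this limit are not exact. At 12 h, Car1, Apol9b and Cmpk2 were just inside, at -0.49, -0.48 and -0.47, while the carboxylesterases Ces2c and Ces2b were just outside, at -0.50 and -0.52. At 3 h, 4930539E08Rik, Bpifb9a and Gm30374 were just inside, at -0.47, -0.47 and -0.46, and Akr1b7 at 0.55 was just outside. Bpifb9a was above background on 1 array at 3 h and Gm30374 on 2, so their places are not exact either.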

How the data were processed

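Cecum RNA in 4 groups of 3 replicates was hybridised to 1-colour Agilent arrays, and samples were grouped by their labels. The authors deposited scanner output from Agilent Feature Extraction 11.5.1.1, with a background-corrected linear intensity for each spot. Their deposited table of processed log2 values was an alternative; it matched the recomputed values centred on each probe's median (Pearson 0.999998 over 56605 probes), and its array medians lay between -0.18 and 0.13. Probe coordinates are mm9, and exons were not assigned.

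Control and outlier spots were left out, spots of a probe were averaged in log2, and the 75th percentile over the probes of each array was subtracted. limma 3.58.1 (R 4.3.3), tested on simulated data, was fitted to the 12 arrays together and p-values were adjusted by Benjamini-Hochberg over all probes. Tables were made with Python 3.11.15 and pandas 2.3.3.

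The members and lists were chosen with earlier results of these data known. A rule named 25 members: the 15 largest differences at 72 h, the 10 with the highest sham values, those in a list and the 3 nearest the 72 h limit. All other genes named, apart from those just outside that limit and the cell type markers, were chosen after their values were seen. Of the members, 40 were matched to RefSeq. Alternatives were other background correction (normexp, offset 50), scaling, choice of probe, dim-probe filter and variance model, slide and replicate blocks, thresholds, and each array left out.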

Additional observations from a re-analysis of the deposited data

How the results depend on the processing

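Signal close to background limits these results. With normexp background correction, 16 genes met the rule, 13 of them among the 44, and the members' median difference at 72 h was -1.03. The genes called were then 766 at 3 h, 1233 at 12 h and 1191 at 72 h, against 2193, 2824 and 2703, and 74.8%, 61.4% and 70.1% of them were higher, against 47.1%, 46.1% and 56.0%. Blocking on slide gave 942 called genes for 72 h, and 40 genes met the rule, 19 of them among the 44. A 72 h limit of -1 or -2 gave 203 or 15 genes, and a window of 0.3 or 1 gave 15 or 117. Requiring signal above background on all 72 h arrays too, chosen after seeing the data, gave 26. The cause of these changes was not tested, apart from the limits and filters, which change the rule itself.

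Leaving out each array in turn gave 34 to 53 genes meeting the rule and medians of the 44 from -1.98 to -1.78. Of the 44, 13 still reached -1.5 with normexp, 25 with slide as a block and 33 without 72 h replicate 1. With quantile normalization 36 genes met the rule, 28 of them among the 44, and with the percentile over probes above background on all arrays 32 did, 30 of them among the 44. With the percentile over spots, chosen after seeing the data, 41 genes met the rule, and 45 did so with the values the authors processed. Of the 25 members named by the rule, 10 had a 72 h difference that moved by more than the SD between replicates with normexp, 10 with slide as a block and 1 with the mean of a gene's probes. Leaving out 1 of 3 arrays can hardly move a mean that far, so nothing is read from it. The replicate block gave 44 genes meeting the rule and 2615 genes called at 72 h. Correlations of same-numbered arrays ran from -0.403 to 0.265, and 2 of 12 arrays correlated best with one of their own number, so the numbers were not taken as pairs.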
